A study of Mus musculus with 8 samples.

Results

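The collagen genes of the mouse were followed in mammary tumours of mice given the kinase inhibitor SKI606 and in tumours of mice given vehicle. All genes of the array annotation whose symbol has the form Col, a number, a and a number were taken, from probes annotated to 1 symbol only. This gave 42 genes with 82 probes, of 18193 genes measured. They were sorted into 11 fibrillar collagen genes, 5 microfibrillar (type VI) genes, 6 genes of the basement membrane collagen (type IV) and 20 genes of other types.

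Gene expression was read on Affymetrix mouse arrays in 8 samples, 4 labelled SKI606-treated and 4 labelled vehicle-treated. All came from female MMTV-PyMT mice of the line FVB/N-Tg(MMTV-PyVT)634Mul/J, whose transgene expresses the polyoma virus middle T antigen from the mouse mammary tumour virus promoter, chiefly in the mammary epithelium. SKI606, also called bosutinib, blocks the tyrosine kinases Src and Abl and was given by mouth at 100 mg/kg. How long treatment lasted, how old the mice were and how the vehicle mice were dosed are not stated in the labels. The study asked whether the drug makes the tumours differentiate. Which animal gave which sample is not listed, and a p-value here therefore measures only how far these samples spread.

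Collagens are secreted matrix proteins in which 3 chains wind into a triple helix. Types I, III, V and XI form the banded fibrils of the stroma and are made mainly by fibroblasts. Type VI forms beaded microfilaments around cells, and type IV forms the sheet-like network of basement membranes below epithelium and around vessels. The chains are hydroxylated and folded in the endoplasmic reticulum, trimmed outside the cell, and crosslinked by lysyl oxidases. In mammary tumours, fibrillar collagen is known to accumulate in the stroma, and its crosslinking is known to stiffen the tissue.

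Promoter windows of 5 members are shown because these members carry the results below: Col1a2 of the fibrillar class, Col6a1 and Col6a3 of type VI, whose groups did not overlap, Col3a1, the fibrillar partner with a smaller difference, and Col4a2, whose start lies next to that of Col4a1. The sequences are from RefSeq (GRCm38.p6), 5′ to 3′ on the strand of the gene, from 250 bases before the annotated start to 50 after it. Capitals mark the letters CCAAT, the core of a GC box (GGGCGG) and the letters TATAAA, on either strand. In the Col3a1 window TATAAA lies at -117 to -112 from the annotated start. The windows lie at chr6:4505368-4505667 (plus strand, Col1a2), chr1:45311288-45311587 (plus, Col3a1), chr10:76725995-76726294 (minus, Col6a1), chr1:90843922-90844221 (minus, Col6a3) and chr8:11312555-11312854 (plus, Col4a2).
Col1a2: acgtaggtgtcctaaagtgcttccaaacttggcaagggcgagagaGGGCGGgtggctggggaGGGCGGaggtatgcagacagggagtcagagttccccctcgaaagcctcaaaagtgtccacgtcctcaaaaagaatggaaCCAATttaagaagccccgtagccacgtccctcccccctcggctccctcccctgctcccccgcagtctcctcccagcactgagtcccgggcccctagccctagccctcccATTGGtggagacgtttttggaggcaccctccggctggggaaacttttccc
Col3a1: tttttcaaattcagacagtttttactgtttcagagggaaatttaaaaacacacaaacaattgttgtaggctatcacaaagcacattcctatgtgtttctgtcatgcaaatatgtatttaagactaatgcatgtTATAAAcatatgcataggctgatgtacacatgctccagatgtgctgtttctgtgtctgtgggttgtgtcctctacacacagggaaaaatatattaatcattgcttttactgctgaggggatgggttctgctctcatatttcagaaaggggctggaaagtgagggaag
Col6a1: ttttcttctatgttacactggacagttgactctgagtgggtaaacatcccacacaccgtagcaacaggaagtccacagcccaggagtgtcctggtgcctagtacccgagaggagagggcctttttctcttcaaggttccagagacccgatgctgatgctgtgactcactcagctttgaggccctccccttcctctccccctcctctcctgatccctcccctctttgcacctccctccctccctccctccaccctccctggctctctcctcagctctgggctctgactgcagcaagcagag
Col6a3: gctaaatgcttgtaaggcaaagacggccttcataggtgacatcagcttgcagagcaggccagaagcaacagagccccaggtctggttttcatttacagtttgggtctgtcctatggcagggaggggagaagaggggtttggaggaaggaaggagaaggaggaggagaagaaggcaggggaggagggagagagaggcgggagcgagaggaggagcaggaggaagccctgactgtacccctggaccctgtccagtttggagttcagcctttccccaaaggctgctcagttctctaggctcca
Col4a2: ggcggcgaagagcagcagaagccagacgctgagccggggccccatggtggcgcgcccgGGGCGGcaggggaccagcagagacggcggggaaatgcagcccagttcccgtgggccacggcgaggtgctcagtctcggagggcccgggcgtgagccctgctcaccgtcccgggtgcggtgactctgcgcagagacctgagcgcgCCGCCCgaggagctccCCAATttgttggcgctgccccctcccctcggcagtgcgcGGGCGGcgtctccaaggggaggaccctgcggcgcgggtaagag
The table of promoters held 36 windows of 33 of the 42 genes. GGGCGG stood in 22 of these 36 windows (61.1%) and in 35.7% of all 32851 windows. CCAAT stood in 13 (36.1%) and in 37.4% of all. TATAAA stood in 5 (13.9%) and in 13.6% of all. In the 5 windows shown no matches overlapped. A match describes letters only, and no factor binding was measured here.

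Most collagen genes had higher signals in SKI606 tumours. Of the 42, 33 had a log2 fold change above 0 (78.6%, against 47.2% of all genes), with a median of 0.45 beside -0.019 over all genes, and 9 lay below 0, against 52.8% of all genes. By the probe of highest mean of each gene, 6 genes were higher in every SKI606 sample than in any vehicle sample. These were the type VI genes Col6a1, Col6a2 and Col6a3, the type I genes Col1a1 and Col1a2, and Col8a1. By the other probes of Col1a1, Col1a2 and Col8a1 the groups overlapped. The medians were 0.72 for the fibrillar class, 0.75 for type VI, 0.24 for type IV and 0.33 for the other types. SKI606 sample 1 was the highest of the 8 samples for 18 of the 42 and SKI606 sample 4 for 13.

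Values are normalized array signals, in arbitrary units that compare samples for 1 gene but not genes with each other. Fold changes are SKI606 minus vehicle on the scale of log2(signal + 16) ± SE from limma (n = 4 each), a scale that understates changes of dim genes. With limma and Benjamini-Hochberg adjustment over all genes, 0 of the 42 passed an adjusted p of 0.05, as did 0.00% of the 18193 genes, and the smallest adjusted p of a collagen gene was 0.367. At an unadjusted p under 0.05, 13 of 42 were higher (31.0%, against 6.07% of all genes) and 1 was lower (4.31% of all genes). Every SKI606 value exceeded every vehicle value in 6 of 42 (14.3%, against 2.39% of all genes) and every SKI606 value was the lower in 1 (2.03% of all genes). The count of 13 became 7 without vehicle sample 3, 7 without SKI606 sample 4 and 2 without 3 samples that stood apart, SKI606 samples 1 and 4 and vehicle sample 3.

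The 3 samples that stood apart had high signals of squamous and hair keratin genes. The summed signal of 12 such genes was 19401 and 22631 in SKI606 samples 1 and 4 and 10247 in vehicle sample 3, against 228 and 223 in SKI606 samples 2 and 3 and at most 440.4 in the other vehicle samples. SKI606 samples 1 and 4 also lay apart from the other samples on the first principal component of all probes, which held 34.0% of the variance. Array medians before normalization were 15 or 16 in SKI606 samples and 15, 17, 23 and 18 in vehicle samples 1 to 4. In vehicle sample 3, 27.8% of signals were below 10 before normalization, against 34.0% to 41.6% in the other arrays. This sample also lay apart on the second component, at -81.0, against -2.30 to 35.3. The part of this array difference in the collagen values was not tested. Precision is limited by having 4 arrays per group. Cell cycle markers were low in SKI606 samples 1 and 4, with sums over 6 genes of 873.5 and 883, against 2666 and 1770 in SKI606 samples 2 and 3 and 2139 to 2985 in vehicle samples. Of these 6, 0 lay above 0 (47.2% of all genes), 0 were dim and the median was -0.80. At an unadjusted p under 0.05, 3 of the 6 were lower, against 4.31% of all genes. The part of the cell cycle markers in the collagen values was not tested. Markers of the mammary epithelium were well measured in all samples, with sums over 7 genes from 27345 to 35996 in SKI606 and from 23920.2 to 37340.4 in vehicle samples.

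Fibroblast markers followed the order of the collagens only in part. All 7 of its genes were above 0 (47.2% of all genes), their median was 0.61 and 0 of 7 were dim. Their summed signal ranged from 1431 to 3567 in SKI606 and from 1056 to 1846 in vehicle samples. At an unadjusted p under 0.05, 2 of 7 were higher, against 6.07% of all genes. In these whole-tissue samples a change in the number of cells of a type and in RNA per cell cannot be told apart. The part of fibroblast content in the collagen values was not tested. The highest fibroblast sum was in SKI606 sample 4 and the lowest in vehicle sample 3, but SKI606 sample 2, with 2609, lay above SKI606 sample 1, with 2449, and SKI606 sample 3 lay below vehicle samples 1 and 4. Macrophage markers were also higher, with 6 of 6 above 0, 0 dim, and sums from 6975 to 11495 in SKI606 and from 3544 to 5227 in vehicle samples. Adipocyte and skeletal muscle marker sums varied widely in both groups, from 353 to 5227 and from 99.4 to 12096 in SKI606 samples and from 338 to 1992 and from 94.8 to 17568 in vehicle samples. Of these markers 4 of 5 and 7 of 7 were above 0, and Lep and Cidec were dim. None of these cell types' part in the collagen values was tested.

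Among the fibrillar genes, Col1a1 encodes the chain present in 2 copies per molecule of type I collagen. It had signals of 7251, 3972, 3417 and 6092 in SKI606 samples 1 to 4, against 2449, 3017, 2753 and 2775 in vehicle samples 1 to 4. The groups did not overlap by this probe, and SKI606 samples 1 and 4 were far above the other 6. By its second probe, at 0.76, SKI606 sample 2 (746) lay below vehicle samples 3 (841) and 4 (843). Its fold change was 0.85 ± 0.24 (adjusted p = 0.389), and 0.43 ± 0.18 without the 3 samples.

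Col1a2, which encodes the partner chain of type I, had 9610.2, 6149, 5559.9 and 8885 in SKI606 samples and 4493, 4686, 3849.8 and 4927 in vehicle samples. The order of the SKI606 samples was that of Col1a1, and again no vehicle sample reached the lowest of them. The fold change was 0.72 ± 0.20 (adjusted p = 0.389). Its other probes gave 0.65 and 0.45, with groups that overlapped. For Col3a1, the fibrillar chain that shares fibrils with type I, the SKI606 signals were 8316, 7582, 5704 and 8650.0 and the vehicle signals 6515, 4903, 4717 and 5997. Here the groups overlapped, because SKI606 sample 3 lay below vehicle samples 1 and 4, and the fold change was 0.44 ± 0.18 (adjusted p = 0.460).

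Col11a1 encodes a chain of type XI, a minor fibril collagen that is known to nucleate fibrils with type V. Its signals were 441, 895, 299 and 435 in SKI606 samples, against 168, 223, 142 and 327 in vehicle samples. SKI606 sample 2, not 1 or 4, was the highest, and SKI606 sample 3 lay below vehicle sample 4. The fold change was 1.16 ± 0.34 (adjusted p = 0.410) over all samples and 1.11 ± 0.49 without the 3 samples that stood apart. Its second probe gave 0.92.

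**Figure D1:**
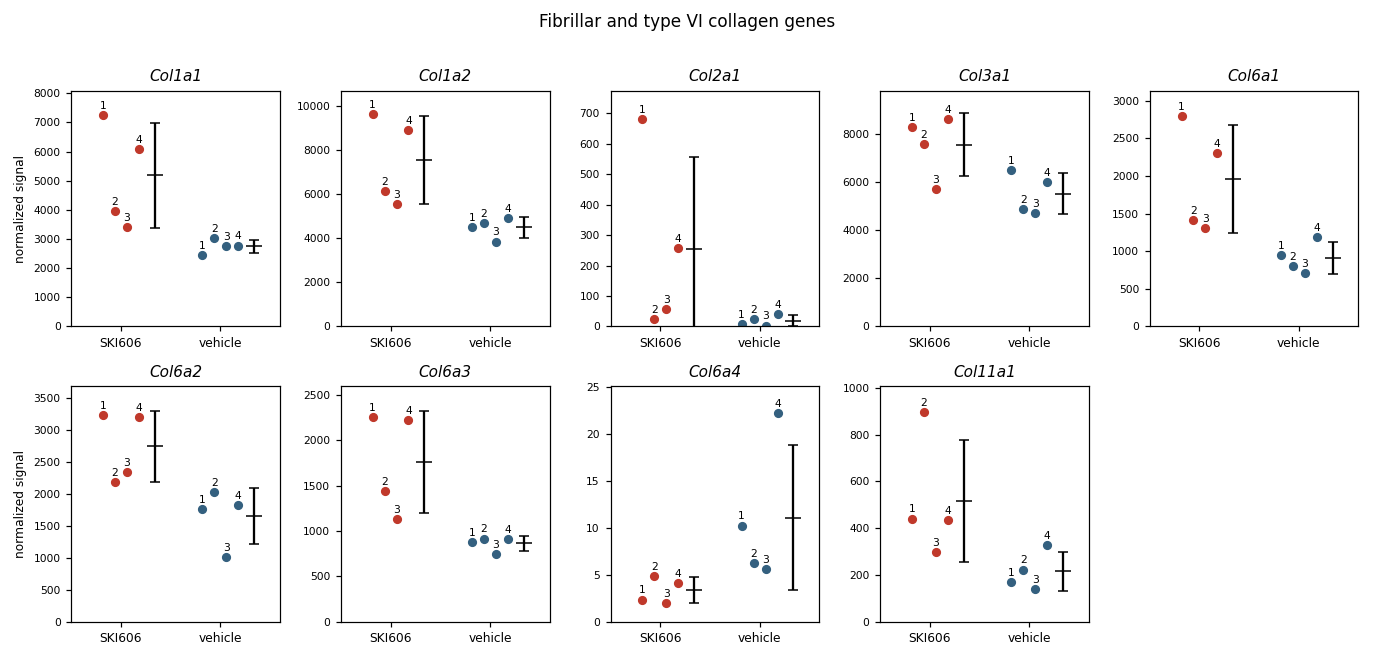
Normalized signal (arbitrary units, axes from 0) of 9 fibrillar and type VI collagen genes, with 1 point per sample numbered by replicate, SKI606 in red and vehicle in blue, and the mean ± SD in black beside each group. In Col1a1, Col1a2, Col6a1, Col6a2 and Col6a3 all SKI606 points lie above all vehicle points, with samples 1 and 4 at the top, and in Col11a1 sample 2 is at the top with 895. The SD bar of Col2a1 is cut at 0.

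Col2a1 encodes the fibril collagen of cartilage. It had 681, 24.9, 56.4 and 258 in SKI606 samples and 9.12, 23.4, 3.0 and 42.1 in vehicle samples. SKI606 samples 1 and 4 held most of the signal, and the other 6 samples lay between 3.0 and 56.4. The fold change of 2.25 ± 0.80 (adjusted p = 0.433) was the largest of the 42 and became 0.49 ± 0.41 without the 3 samples. Of 6 chondrocyte markers, 5 (Acan, Comp, Matn1, Matn3 and Hapln1) were dim, with a mean signal under 50 in both groups. Of the 6, 3 lay above 0 (47.2% of all genes). The list's sum ranged from 60.1 to 246 in SKI606 and from 57.6 to 119 in vehicle samples. The marker that was not dim, Cnmd, had 188 in SKI606 sample 1 and from 1.12 to 34.0 in the other samples.

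The type V genes Col5a1, Col5a2 and Col5a3, whose chains regulate fibril diameter, had fold changes of 0.86 ± 0.35, 0.72 ± 0.32 and 0.64 ± 0.43. In Col5a1 the mean signal was 882 ± 481 in SKI606 and 426 ± 43.4 in vehicle samples (SD, n = 4 each). These 3 genes stood at 0.19, 0.11 and -0.16 without the 3 samples. Without SKI606 sample 4 alone Col5a2 was at 0.48 and Col5a3 at 0.40, and Col5a3 was at 0.36 without SKI606 sample 1 and at 0.42 without vehicle sample 2. The second probe of Col5a3, which was dim, gave -0.21. Col27a1, a fibrillar chain of developing cartilage, was the only fibrillar gene below 0, at -0.28 ± 0.20, with the groups overlapping, and ranged from -0.45 without vehicle sample 3 to -0.14 without vehicle sample 4. Col11a2 and Col24a1 were dim, at 0.50 ± 0.23 and 0.22 ± 0.24. In the class, 6 of 11 were higher at an unadjusted p under 0.05, against 6.07% of all genes.

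The type VI genes Col6a3 and Col6a1 had the smallest p-values of all collagen genes. Col6a3, which encodes the large chain of the type VI trimer, had 2254, 1443, 1133 and 2223 in SKI606 samples, against 878, 917, 745 and 915 in vehicle samples. All SKI606 values exceeded all vehicle values, and the vehicle samples lay close together. The fold change was 0.96 ± 0.23 (adjusted p = 0.367).

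Col6a1, which encodes another chain of this trimer, had 2798, 1414, 1309 and 2301 in SKI606 samples and 946, 803, 706 and 1187 in vehicle samples, at 1.04 ± 0.27 (adjusted p = 0.367). Col6a2, its neighbour on the same chromosome and the third chain, had 3233, 2178, 2342 and 3202 in SKI606 samples and 1759, 2024, 1012 and 1819 in vehicle samples, at 0.75 ± 0.24 (adjusted p = 0.433). Vehicle sample 3 was the lowest sample in each of the 3 genes. Without the 3 samples that stood apart Col6a3, Col6a1 and Col6a2 stood at 0.49 ± 0.18, 0.49 ± 0.21 and 0.28 ± 0.17. The windows of Col6a1 and Col6a3 printed above hold none of the 3 motifs.

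The further type VI genes Col6a4 and Col6a5 were dim. Col6a4, which codes for an alternative type VI chain, had 2.38, 4.88, 2.0 and 4.12 in SKI606 samples, against 10.2, 6.25, 5.62 and 22.2 in vehicle samples. By the probe taken per gene, only Col6a4 had all SKI606 values below the vehicle values (-0.45 ± 0.19, adjusted p = 0.471). Its signals were under the added 16 in all samples but vehicle sample 4, and its second probe gave 0.027. Without vehicle sample 4 Col6a4 stood at -0.27. A further probe of the dim Col19a1 gave -0.57 ± 0.16, also with all SKI606 values below the vehicle values. Col6a5 stood at 0.21 ± 0.18.

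**Figure D2:**
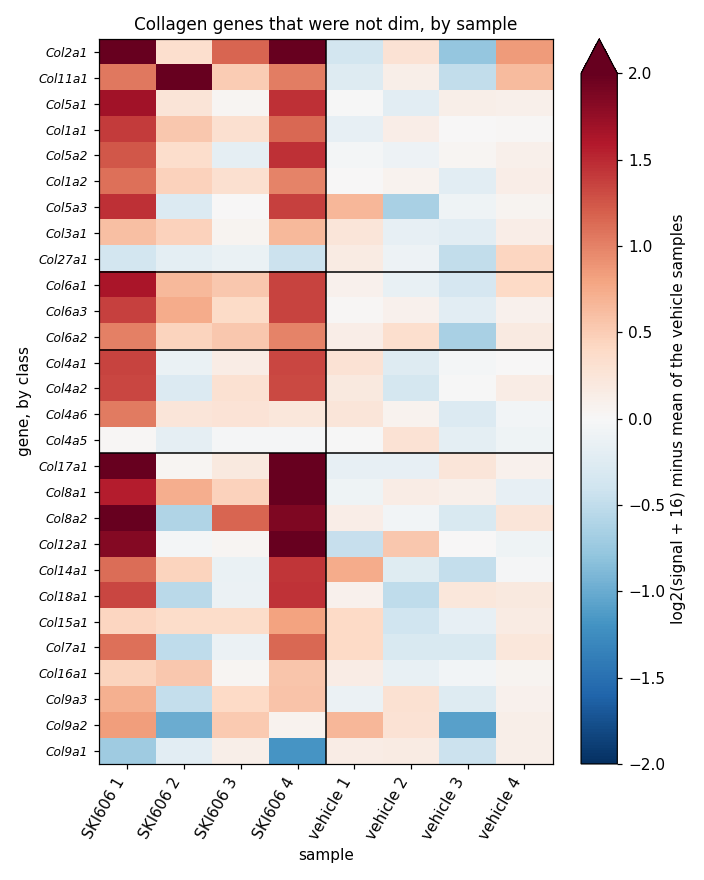
Difference of log2(signal + 16) from the mean of the vehicle samples for the 28 collagen genes that were not dim, with genes in rows by class (fibrillar, type VI, type IV and other, from top to bottom) and samples in columns. Colour runs from blue (lower) to red (higher) and is capped at 2. Columns SKI606 1 and SKI606 4 are red in most rows, while Col9a1 is blue there and Col4a5 is near white in every column.

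In 22 of the 42 genes, dim ones included, SKI606 samples 1 and 4 were both above the other 6 samples (52.4%, against 11.1% of all genes). Vehicle sample 3 was the lowest sample in 13 of the 42 and vehicle sample 2 in 9. The mean log2 value over all 42 genes was 8.27, 7.53, 7.58 and 8.24 in SKI606 samples 1 to 4 and 7.48, 7.45, 7.26 and 7.51 in vehicle samples 1 to 4. In this mean SKI606 samples 2 and 3 lay just above the highest vehicle sample, and SKI606 samples 1 and 4 lay well above it.

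In the basement membrane class 4 of 6 genes lay above 0 (47.2% of all genes) and 2 were dim. By the probe taken for each gene, 0 had an unadjusted p under 0.05. Col4a1, which encodes 1 of the chains of the ubiquitous type IV network, had 2469.9, 876, 1065 and 2435 in SKI606 samples, against 1179.6, 799, 933 and 959 in vehicle samples. SKI606 samples 1 and 4 were high, whereas SKI606 samples 2 and 3 lay within the vehicle range. Col4a2, which encodes the partner chain, had 1935, 623, 945 and 1917 in SKI606 samples and 876, 596, 754 and 848 in vehicle samples. The fold changes were 0.68 ± 0.34 (adjusted p = 0.509) and 0.67 ± 0.35 (adjusted p = 0.522), and -0.0014 ± 0.22 and 0.010 ± 0.27 without the 3 samples.

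These 2 genes lie head to head on chromosome 8, with annotated starts 21 bases apart, so that the Col4a2 window printed above also holds the start of Col4a1. It has CCAAT on the printed strand and GGGCGG at 3 places. The genes Col4a6 and Col4a5 are arranged in the same way on the X chromosome, with starts 1343 bases apart. Col4a6, a chain of epithelial and smooth muscle basement membranes, had 369, 205, 212 and 205 in SKI606 samples and 207, 182, 139.5 and 165 in vehicle samples, at 0.45 ± 0.21 (adjusted p = 0.495), and 0.25 without SKI606 sample 1 and 0.17 without the 3 samples. A second probe of Col4a6 gave 0.61 ± 0.22 (unadjusted p = 0.020 from limma), with every SKI606 signal above every vehicle signal. Col4a5, its partner chain, had means of 699 ± 43.7 in SKI606 and 729 ± 113 in vehicle samples (SD, n = 4 each), with a fold change of -0.049 ± 0.15 and a 95% interval from -0.37 to 0.28. Its sign turned with the scaling, to 0.21 with array medians and 0.22 on the deposited ratios, and without vehicle sample 2, to 0.049. Whether Col4a5 and Col4a6 differed in their fold change was not tested. Col4a3 and Col4a4, best known from the kidney glomerulus, were dim, at 0.034 ± 0.13 and -0.23 ± 0.16.

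Endothelial markers, whose cells also lay down type IV collagen, were higher in the same samples. Of 6 measured, 6 lay above 0 (47.2% of all genes) with a median of 0.74, and 1, Kdr, was dim. Their summed signal was 930 and 967 in SKI606 samples 1 and 4, 506 and 451 in SKI606 samples 2 and 3, and 318 to 567 in vehicle samples. Pericyte and smooth muscle markers had sums of 5077 and 4509 in SKI606 samples 1 and 4, 2161 and 1655 in SKI606 samples 2 and 3, and 1394 to 2145 in vehicle samples, with 6 of 6 above 0 and Cspg4 and Myh11 dim. Their part in the type IV values was not tested.

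**Figure D3:**
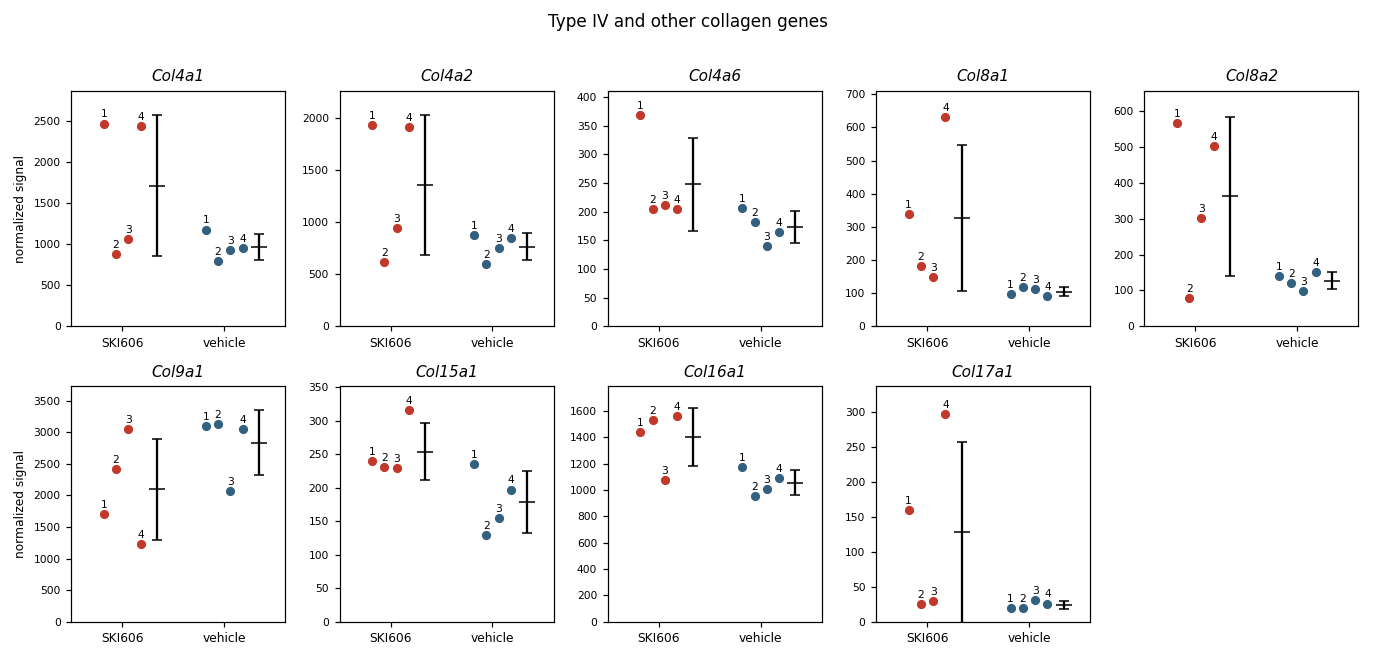
Normalized signal (arbitrary units, axes from 0) of 9 collagen genes of type IV and other types, with 1 point per sample numbered by replicate, SKI606 in red and vehicle in blue, and the mean ± SD in black beside each group. SKI606 samples 1 and 4 stand above the rest in Col4a1, Col4a2, Col8a1, Col8a2 and Col17a1, where the SD bar is cut at 0, and below all others in Col9a1.

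Of the other types, the short-chain collagen gene Col8a1, whose product forms networks in vessel walls, had 339.6, 183, 149.6 and 631 in SKI606 samples, against 97.0, 118, 114 and 90.9 in vehicle samples. The groups did not overlap by this probe but overlapped by its other probes. The fold change was 1.29 ± 0.38 (adjusted p = 0.408), while its other probes gave 0.56 and 0.50, and it was 0.63 ± 0.19 without the 3 samples. Its partner gene Col8a2 had 566, 77.8, 302 and 502 in SKI606 samples and 139.5, 121, 98.6 and 152 in vehicle samples, at 1.11 ± 0.50 (adjusted p = 0.481). SKI606 sample 2 was the lowest of all 8 samples for Col8a2, although the other SKI606 samples were above every vehicle sample. Its fold change was 1.69 without SKI606 sample 2 and 0.18 ± 0.49 without the 3 samples.

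Col17a1 encodes the transmembrane collagen of hemidesmosomes, which tie basal epithelial cells to the basement membrane. It had 159, 24.9, 29.8 and 298 in SKI606 samples, against 19.6, 19.5, 31.1 and 26.1 in vehicle samples. Only SKI606 samples 1 and 4 stood out, and vehicle sample 3, the other keratin-high sample, did not. The fold change was 1.34 ± 0.59 (adjusted p = 0.477), and 0.79 without SKI606 sample 4 and 0.20 ± 0.18 without the 3 samples. Of 4 basal epithelial markers, 3 lay above 0 (47.2% of all genes) and 0 were dim. Their summed signal was 7880 and 9625 in SKI606 samples 1 and 4, 559.8 and 1401 in SKI606 samples 2 and 3, and 1562 to 4221 in vehicle samples. The highest vehicle sum, 4221, was in vehicle sample 3, and the part of these cells in the Col17a1 values was not tested.

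Col9a1, a fibril-associated chain best known from cartilage, ran the other way. Its signals were 1704, 2411, 3042 and 1226 in SKI606 samples, against 3103, 3124, 2069 and 3048 in vehicle samples. The 2 lowest values were in SKI606 samples 1 and 4, and vehicle sample 3 was the third lowest sample. The fold change was -0.50 ± 0.28 (adjusted p = 0.547) with a second probe at -0.42, and -0.27 without SKI606 sample 4 and -0.19 ± 0.18 without the 3 samples. Its type IX partner chains Col9a2 and Col9a3 did not share this order, with fold changes of 0.11 ± 0.45 and 0.30 ± 0.26. Col9a2 turned negative without vehicle sample 3 (-0.25), SKI606 sample 1 (-0.14) or SKI606 sample 3 (-0.027). Col9a3 was at 0.17 without SKI606 sample 1 and at 0.56 without SKI606 sample 2.

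The basement membrane zone collagen gene Col15a1 had 239.7, 231, 229 and 317 in SKI606 samples and 235, 129, 154 and 197 in vehicle samples, at 0.49 ± 0.20 (adjusted p = 0.460). Only vehicle sample 1 reached into the SKI606 range. Col16a1, a fibril-associated collagen gene, had 1442, 1530.4, 1078 and 1558 in SKI606 samples and 1171, 953, 1010.0 and 1088 in vehicle samples, at 0.39 ± 0.16 (adjusted p = 0.460). In both genes the values without the 3 samples, 0.31 ± 0.26 and 0.26 ± 0.22, were of the same sign.

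The fibril-associated genes Col12a1 and Col14a1 stood at 1.02 ± 0.51 and 0.71 ± 0.37, with mean signals for Col12a1 of 1225 ± 904 in SKI606 and 481 ± 148 in vehicle samples (SD, n = 4 each). Without the 3 samples they were at 0.0095 and -0.0035, and without SKI606 sample 4 alone at 0.61 and 0.47. Col18a1, whose C-terminal fragment is endostatin, stood at 0.54 ± 0.44 over all samples and at -0.25 without the 3 samples, and Col7a1, the collagen of anchoring fibrils, at 0.41 ± 0.38 and -0.42. Without SKI606 sample 1, 2 or 4 Col18a1 stood at 0.27, 0.89 and 0.23, and Col7a1 at 0.17, 0.71 and 0.16. The remaining 8 genes of the class were dim (Col10a1, Col13a1, Col19a1, Col20a1, Col22a1, Col23a1, Col25a1 and Col26a1), with values from -0.14 to 0.36. In all, 14 of the 42 were dim, and no difference can be read from their signals at this brightness.

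**Figure D4:**
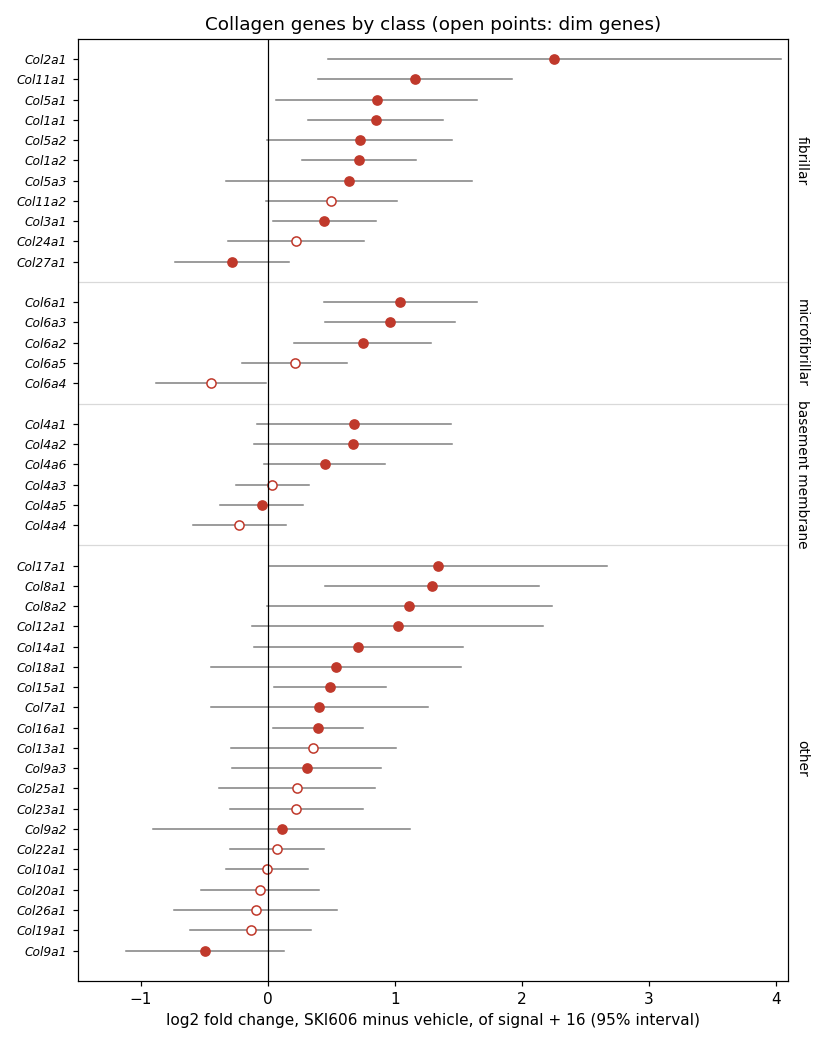
Log2 fold change, SKI606 minus vehicle, of signal + 16 for all 42 collagen genes by class, with the 95% interval from limma as a line (n = 4 each). Filled points are genes with a mean signal of at least 50 in either group and open points the 14 dim genes. Of the 42 points 33 lie right of 0, and the widest interval is that of Col2a1, from 0.47 to 4.04.

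**Figure D5:**
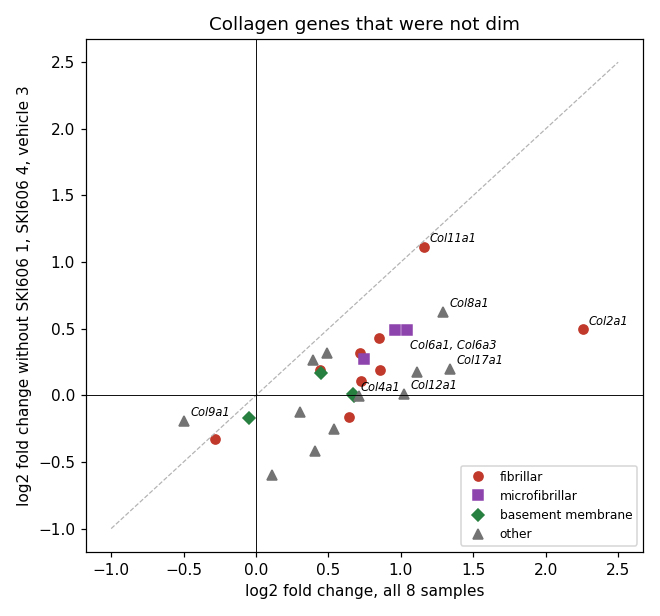
Log2 fold change of the 28 collagen genes that were not dim, over all 8 samples (x axis) and without SKI606 samples 1 and 4 and vehicle sample 3 (y axis), with 1 point per gene, shape and colour by class, and equality as a dashed line. Col11a1 lies close to the line at 1.16 and 1.11, and Col2a1 far below it at 2.25 and 0.49.

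Without the 3 samples, 25 of the 42 genes had a value above 0, against 50.6% of all genes, and the median was 0.074. An unadjusted p under 0.05 with a higher value was left for 2 of 42 (2.06% of all genes), and 0 passed the adjusted test. The groups, then 2 against 3, did not overlap with higher SKI606 values in 6 of 42, against 7.99% of all genes.

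Genes of the collagen pathway were taken from a list of 63, of which 58 were measured. The list covers processing enzymes, crosslinking, fibril-binding partners, receptors and degradation. Of these, 48 lay above 0 (82.8%, against 47.2% of all genes) with a median of 0.46. At an unadjusted p under 0.05, 19 were higher (32.8%, against 6.07% of all genes) and 0 lower (4.31% of all genes), while 0 passed the adjusted test. Serpinh1, which encodes the collagen chaperone HSP47, had the smallest adjusted p, 0.363, at 0.93 ± 0.20, with means of 2868 ± 611 in SKI606 and 1495 ± 295 in vehicle samples (SD, n = 4 each) and no overlap. It stood at 0.54 without the 3 samples. P3h1 and P3h3, prolyl 3-hydroxylase genes, were at 0.82 ± 0.28 and 0.67 ± 0.28, and at 0.30 and 0.18 without the 3 samples. Of the 20 measured genes of hydroxylation, folding and secretion, 13 lay above 0, with a median of 0.28.

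All 6 measured genes of propeptide removal lay above 0 (47.2% of all genes), with a median of 0.66. Pcolce, an enhancer of procollagen C-proteinase, stood at 0.96 ± 0.28 with no overlap of the groups, Pcolce2 at 1.03 ± 0.33 and the dim protease gene Tll1 at 0.46 ± 0.18. These stood at 0.45, 0.64 and 0.27 without the 3 samples. All 5 measured crosslinking genes also lay above 0. Their members of smallest p were the lysyl oxidase family genes Loxl3 at 0.96 ± 0.35, Loxl1 at 0.68 ± 0.31 and Lox at 0.52 ± 0.34. Loxl3 stood at 0.32, Loxl1 at 0.041 and Lox at -0.092 without the 3 samples. Lox was at 0.17 without SKI606 sample 4.

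The 8 genes of fibril-binding partners all lay above 0 (47.2% of all genes), with a median of 0.76. The 3 of smallest p were the small proteoglycan genes Dcn at 1.18 ± 0.38 and Bgn at 0.82 ± 0.27 and Sparc, a collagen-binding matricellular protein gene, at 0.71 ± 0.23. Bgn and Sparc showed no overlap. Dcn stood at 0.84, Bgn at 0.24 and Sparc at 0.22 without the 3 samples. Of 9 measured receptor and uptake genes, 8 were above 0 (median 0.17). Among them Mrc2, the endocytic collagen receptor gene, Itgb1 and the dim Itga1, integrin subunit genes, stood at 0.87 ± 0.29, 0.67 ± 0.22 and 0.81 ± 0.27, and at 0.29, 0.44 and 0.27 without the 3 samples. Of 10 genes listed under degradation, the inhibitor genes Timp1, Timp2 and Timp3 included, 8 lay above 0 with a median of 0.93. The collagen-degrading cathepsin gene Ctsk was at 1.46 ± 0.38, the gelatinase gene Mmp2 at 1.11 ± 0.30 and Timp3 at 1.64 ± 0.52. The values without the 3 samples were 0.89, 0.55 and 0.58.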

How the data were processed

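Expression was measured in 8 mammary tumour samples, 4 SKI606 and 4 vehicle, grouped by their titles. The deposited values are linear ratios per probe. Which software made and normalized them is not given in the sources used here. Per the labels' protocols, labelling followed Affymetrix. In 26196 of 45101 probes the 8 ratios had a median of 1 within 0.0001. In the remaining 18905 probes the values of an array were whole multiples of a common step. Whole-number signals that give these ratios were recovered. They returned 45101 probes within a relative 0.0001, and 99.7% of 5500 simulated probes were recovered exactly. The search allowed a deviation of 0.002 from a whole number, or a relative 3e-07 where that was larger.

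Signals of 45037 probes, without 64 control probes, were quantile normalized, 16 was added and log2 taken. limma 3.58.1 (R 4.3.3) was fitted to group only. Names came from the platform annotation (34945 probes with 1 symbol, 932 with several, 9160 unnamed here), and identifiers of 34741 named probes matched the RefSeq gene table. A gene was its probe of highest mean, and p-values were adjusted over 18193 genes (Benjamini-Hochberg). On simulated arrays of 18193 genes for SKI606 against vehicle, 88% of 100 genes changed by 2 and 45% of 100 changed by 1 (log2) were called.

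Values in every sample are given for the members of smallest p in each class (up to 5 fibrillar and other, up to 3 of each remaining class), the 2 of highest mean signal in each class, and members whose groups did not overlap. Up to 3 genes of smallest p are named per sublist of the collagen pathway. Dim means a mean signal under 50 in both groups. Members and lists were chosen with earlier results of these data known.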

Additional observations from a re-analysis of the deposited data

Results flagged for a closer look

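Among the 18 collagen genes given in every sample, 4 class means and the mean over all 42 genes, 46 groups of 4 were examined for a sample whose gap to its neighbour took up most of the range on the log2 scale, and 4 were found. Chance gives about 1 in 20 groups. SKI606 sample 1 stood above the other SKI606 samples in Col4a6, with a signal of 369. SKI606 sample 4 stood above them in Col15a1, with 317. Vehicle sample 3 stood below the other vehicle samples in Col9a1, with 2069, and in the mean of the other collagen types, with a log2 value of 6.66.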

How the results depend on the processing

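The number of collagen genes past an adjusted p of 0.05 was 0 in every setting tried. Values without 1 sample ranged from 7 to 19 for genes higher and from 0 to 2 for genes lower at an unadjusted p under 0.05. Genes higher were 20 with the replicate block and 2 without the 3 samples of high keratin signals. Genes lower were 0 with a pseudocount of 64, with only probes of a mean signal of at least 50, and without the 3 samples. The medians without 1 sample ranged from 0.37 to 0.55 for all collagen genes, from 0.53 to 0.85 for fibrillar, from 0.53 to 0.86 for type VI, from 0.14 to 0.28 for type IV and from 0.19 to 0.44 for other types. Without the 3 samples the medians were 0.074 over all, 0.23 for fibrillar, 0.28 for type VI, 0.0043 for type IV and -0.020 for other types. The median was 0.79 over all on the log2 of deposited ratios, where the median of all genes was 0.16 against -0.019, and 0.56 for type IV with the signal filter, which leaves 4 of 6 genes. Array median scaling put the median of all genes at 0.097. Without the 3 samples Col4a1 turned to -0.0014, Col5a3 to -0.16, Col7a1 to -0.42, Col9a2 to -0.60, Col9a3 to -0.13, Col14a1 to -0.0035, Col18a1 to -0.25 and Lox to -0.092. Col9a2 also turned with array weights (-0.035) and without vehicle sample 3 (-0.25), SKI606 sample 1 (-0.14) or 3 (-0.027), and Col4a5 with array median scaling (0.21), on the deposited ratios (0.22) and without vehicle sample 2 (0.049). Without 1 sample Col9a2 ranged from -0.25 to 0.48 and Col4a5 from -0.12 to 0.049. The cause was not tested. Same-numbered samples did not deviate together (correlations of their deviations from the group means from -0.15 to 0.11, and 0 of 4 numbers the best match). With 4 samples per group this check cannot exclude a pairing, and whether the numbers were meant as pairs is not given. The replicate block called 0 collagen genes at an adjusted p under 0.05. Of the 42 genes, 34 lay above 0 with a pseudocount of 4 and 35 with the mean of all probes, against 33. The counts above 0 and of groups without overlap that leave out the 3 samples were chosen after seeing the data. Signals near the added 16 limit what the 14 dim genes can show.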
